A study of Mus musculus with 6 samples.

Results

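The Hedgehog pathway of the gut wall was examined in colon tissue through 9 genes: the ligands Ihh and Shh, the receptor components Ptch1, Smo and Hhip, the transcription factors Gli1, Gli2 and Gli3, and the Hedgehog target Foxf1. The members were taken by symbol from the 27546 genes listed in an RNA-Seq table of FPKM values (fragments scaled by gene length and by library depth), and all 9 were listed. The libraries came from distal colon of 3 mice that lacked the long noncoding RNA Gm31629 in every tissue (Gm31629-/-) and of 3 littermate WT mice. All 6 mice were labelled C57BL/6 (C57BL/6J in the methods), 8 weeks of age, and had drunk water with 3% DSS (dextran sulfate sodium, which damages the lining of the colon and causes colitis) for 7 days before sacrifice on day 8. There were no untreated mice, so each comparison is between genotypes under injury. The study's methods speak of pooled RNA, whereas the table holds 1 column per mouse, and the columns were treated as separate mice. The methods also give male mice, but Gm31629-/- mouse 1 alone held transcripts of the Y-linked genes (Ddx3y at 9.27 FPKM), and the other 5 libraries held Xist at 8.35 to 13.8 FPKM with Ddx3y at 0. The level of Gm31629 itself was not analysed here.

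The groups differed strongly in the cell type markers of the tissue, and these differences stand beside every result on the pathway. A gene was called where the groups differed at a limma adjusted p under 0.05 and by more than 1 on the log2 scale. The summed FPKM of 12 smooth muscle genes was 1604 to 2618 in Gm31629-/- mice and 28.3 to 54.3 in WT mice, and 11 of the 12 were called higher. Acta2, the smooth muscle actin, was at 453 to 641 FPKM in Gm31629-/- mice and at 5.01 to 14.2 FPKM in WT mice, so the WT libraries held little muscle RNA for tissue of the colon wall. All 12 fibroblast genes were called higher (summed FPKM 282 to 824 against 26.0 to 50.6; Col6a1 49.2 to 156 against 4.71 to 7.43). Endothelium (10 of 10 called higher, 68.6 to 125 against 3.00 to 8.37), enteric neurons and glia (11 of 12, 44.5 to 191 against 2.82 to 4.88) and leukocytes (9 of 10, 457 to 811 against 31.6 to 44.2) stood higher as well. Of 3 mesothelial genes tested, 2 were called higher (3.44 to 41.9 against 2.51 to 3.00). Of 15 epithelial genes, 5 were called lower and 0 higher (8236 to 9757 against 13270 to 14498), with the keratin Krt8 at 1650 to 2334 against 4058 to 4332 FPKM, while Epcam was at 990 to 1179 FPKM in Gm31629-/- mice and 1007 to 1164 FPKM in WT mice. Of 10 genes of absorptive colonocytes, 3 were called lower and 0 higher (1711 to 6434 against 6510 to 8226), while 6 of the 10 had a positive log2 fold change, the median was 0.43, and 1 was called higher on fragments (Aqp8). Squamous epithelial genes were at a summed 1.62 to 4.70 FPKM against 0.507 to 0.566 FPKM, with 8 of 10 listed, 2 tested and 0 called. On fragments 3 of them were tested and 2 called higher, against 29.1% of all genes.

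**Figure D1:**
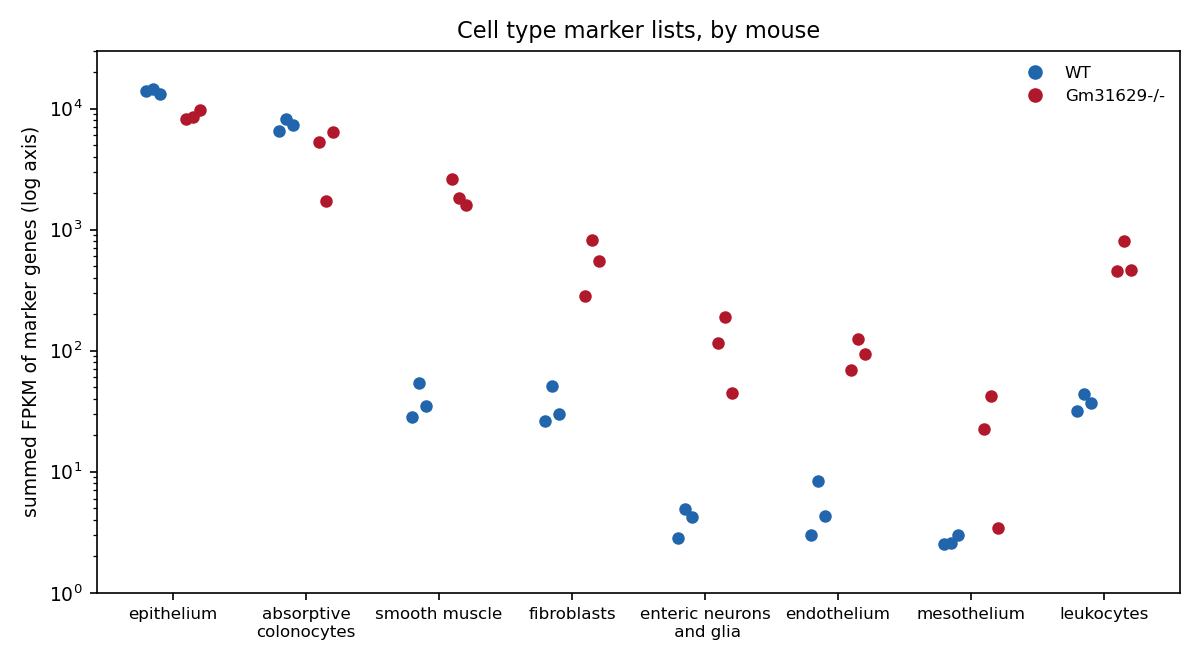
Summed FPKM (log axis) of the marker genes of 8 cell types, 1 point per mouse, WT in blue and Gm31629-/- in red. The epithelial sums lie between 8236 and 14498 in all 6 mice, whereas the smooth muscle sums are 28.3 to 54.3 in WT mice and 1604 to 2618 in Gm31629-/- mice.

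Hedgehog ligands are made in the gut by the epithelium and act on the mesenchyme beneath it. There they bind the receptor Ptch1, which in the absence of ligand holds the membrane protein Smo in check, and once Smo is released the GLI transcription factors turn on target genes, among them Ptch1, Hhip and Gli1 themselves. Foxf1, a forkhead transcription factor of the gut mesenchyme, is a long-known target, and in the adult colon Ihh is the main ligand, made by differentiated epithelial cells.

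The genes lie on 6 chromosomes of GRCm38, and Ihh and Gli2 share chromosome 1 with Gm31629. RefSeq (GRCm38.p6) held a promoter window, from 250 bases before to 50 bases after the start, for 6 of the 9 members (Ihh, Ptch1, Smo, Hhip, Gli2 and Gli3). The 250 bases before the start are shown for the ligand that was lower in Gm31629-/- mice and for 2 members that were higher, with each CpG dinucleotide in capitals, since these members differ in direction and in the cells they are known from. They are Ihh (minus strand, chr1:74951673-74951922), Gli2 (minus strand, chr1:119053620-119053869) and Hhip (minus strand, chr8:80058009-80058258), 5′ to 3′ on the strand of the gene:
Ihh: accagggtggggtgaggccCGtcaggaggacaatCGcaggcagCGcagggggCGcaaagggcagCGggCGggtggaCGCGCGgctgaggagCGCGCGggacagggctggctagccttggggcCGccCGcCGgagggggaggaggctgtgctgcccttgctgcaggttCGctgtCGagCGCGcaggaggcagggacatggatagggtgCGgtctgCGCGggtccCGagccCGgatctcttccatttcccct
Gli2: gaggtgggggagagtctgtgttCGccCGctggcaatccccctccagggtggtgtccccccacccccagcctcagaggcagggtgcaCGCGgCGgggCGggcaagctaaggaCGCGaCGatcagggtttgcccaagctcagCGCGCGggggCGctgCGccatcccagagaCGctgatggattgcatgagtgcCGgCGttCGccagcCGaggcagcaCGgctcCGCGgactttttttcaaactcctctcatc
Hhip: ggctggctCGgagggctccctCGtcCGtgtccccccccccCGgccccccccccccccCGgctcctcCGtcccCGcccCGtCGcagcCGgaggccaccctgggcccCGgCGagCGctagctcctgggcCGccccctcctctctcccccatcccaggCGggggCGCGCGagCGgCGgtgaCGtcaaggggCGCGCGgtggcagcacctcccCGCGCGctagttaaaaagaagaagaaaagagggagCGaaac
The windows held 24 (Ihh), 22 (Gli2) and 28 (Hhip) CpG dinucleotides, against a median of 11 and an upper quartile of 20 over 19717 promoters, so all 3 lay above the upper quartile. The GLI consensus GACCACCCA, read on both strands, was found in 0 of the 6 member windows and in 0.223% of all 19717 windows. Its core CCACCCA, which lies within the consensus, was also found in 0 of 6 member windows and in 9.98% of all windows.

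Among the 12 genes of the gut mesenchyme linked to Hedgehog, 6 had a window, and 3 of these held the core. In the other lists of pathway genes 0 of 37 windows held it, and so 3 of 43 in all lists together, against 9.98% of all windows. The difference between lists was not tested. The matches before the start of 2 genes that were called higher are shown with the core, here as its reverse complement, in capitals. They lie 215 bases before the start of Bmp5 (plus strand, chr9:75775139-75775168) and 143 bases before that of Nkx2-3 (plus strand, chr19:43612171-43612200):
Bmp5: ttctgtatggcTGGGTGGcaacgttttcag
Nkx2-3: caacatcccacTGGGTGGacgcagagggcg
The third was Mycn, where the match began after the start. A match is a run of letters and was not examined for binding.

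Both member ligands were lower in Gm31629-/- mice. Dhh, a ligand outside the 9 members that was counted with the genes of ligand processing and release, was higher (values below). Ihh (Indian hedgehog, ENSMUSG00000006538, chr1:74945315-74951672, minus strand) was at 15.4, 10.6 and 32.4 FPKM in Gm31629-/- mice 1 to 3 and at 37.3, 40.6 and 42.7 FPKM in WT mice 1 to 3. All Gm31629-/- values lay below all WT values, and mouse 3 stood close to the WT range while mice 1 and 2 were well under it. The mean was 19.5 ± 11.4 FPKM (SD, n = 3) against 40.2 ± 2.71 FPKM (SD, n = 3), and the log2 fold change of FPKM + 1 was -1.15 (95% CI -1.99 to -0.31, limma adjusted p = 0.0359), so Ihh fell. Of all 14657 genes tested, 4.64% were called lower. The call rested on the full set of mice: without Gm31629-/- mouse 1 or 2 the log2 fold change was -1.06 (limma adjusted p = 0.0841) and -0.82 (0.0727), and without WT mouse 1, 2 or 3 the adjusted p was 0.0809, 0.0887 and 0.11. Without Gm31629-/- mouse 3 it was -1.58 (adjusted p = 0.00291).

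Ihh was also set against the epithelium it is known from. Per 100 FPKM of the geometric mean of the 15 epithelial genes, Ihh was at 3.96, 3.19 and 8.13 in Gm31629-/- mice and at 6.02, 6.37 and 7.40 in WT mice. These ranges overlapped, with Gm31629-/- mouse 3 above every WT mouse and mice 1 and 2 below. With the libraries scaled to these genes, the log2 fold change was -0.47 (95% CI -1.20 to 0.27, limma adjusted p = 0.239). In bulk tissue, fewer cells of a type and less RNA per cell cannot be told apart. The part of the epithelial markers in the level of Ihh was not tested.

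Shh (Sonic hedgehog, the ligand of the embryonic gut, ENSMUSG00000002633, chr5:28456815-28467256, minus strand) was near the limit of detection. It was at 0.0382, 0.0381 and 0.0574 FPKM in Gm31629-/- mice, which were 2, 2 and 3 fragments, and at 0.285, 0.351 and 0.150 FPKM in WT mice, which were 15, 18 and 8 fragments. The groups did not overlap, and the WT mean was 5.88 times the Gm31629-/- mean, but 7 against 41 fragments in all is a small base. Shh lay below the filter of the fit (a mean FPKM of at least 0.5), and the exact permutation test gave p = 0.1, the smallest that 3 against 3 mice allow. Per 100 FPKM of the epithelial genes it remained lower, at 0.00986 to 0.0144 against 0.0259 to 0.0551. Shh overlaps annotated noncoding genes on the opposite strand (9530036O11Rik and Gm26894), and since the strand setting of the counting is not given in the sources used here, their reads cannot be told apart.

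The ratio of the ligands kept Ihh far ahead in every mouse. Ihh FPKM was 402, 279 and 565 times Shh FPKM in Gm31629-/- mice and 131, 116 and 285 times in WT mice, and these ranges overlapped. With 2, 2 and 3 fragments of Shh in Gm31629-/- mice, the size of these ratios is rough.

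**Figure D2:**
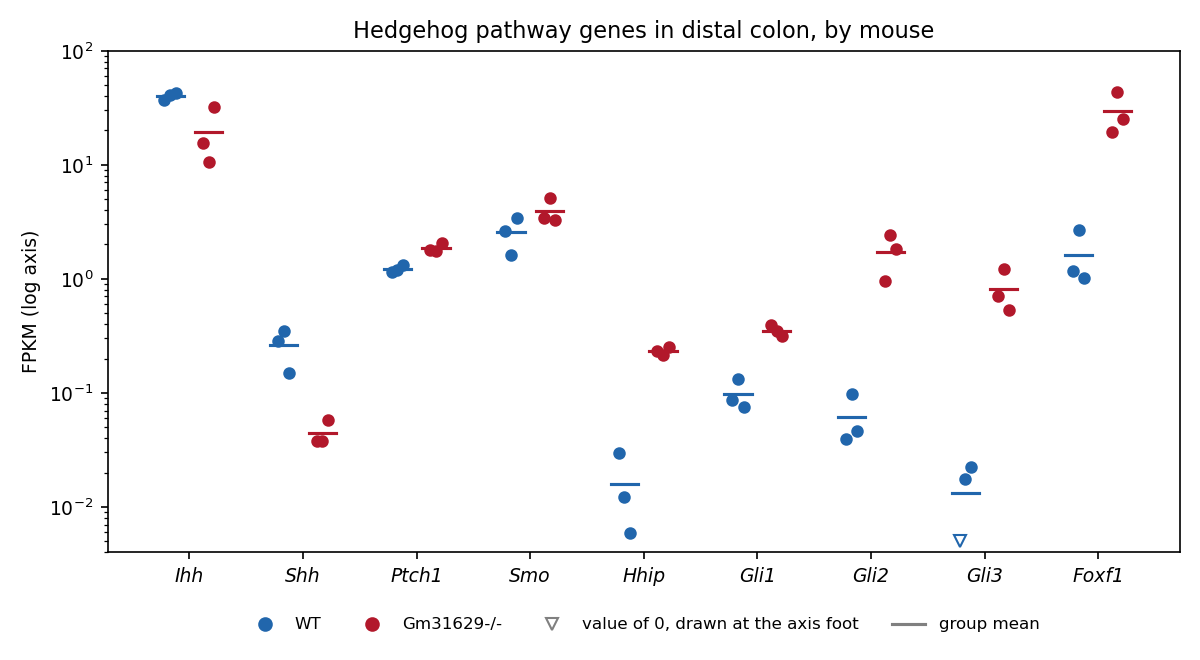
FPKM (log axis) of the 9 genes in each mouse, WT in blue and Gm31629-/- in red, with a line at each group mean. Both ligands lie lower in Gm31629-/- mice (Ihh 10.6 to 32.4 against 37.3 to 42.7 FPKM), Smo overlaps, and the other 6 genes lie higher, from Ptch1 (1.74 to 2.06 against 1.14 to 1.31 FPKM) to Foxf1 (19.5 to 43.5 against 1.01 to 2.69 FPKM).

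Of the receptor components, Hhip differed widely between the genotypes and Ptch1 and Smo little. Ptch1 (the Hedgehog receptor and itself a target, ENSMUSG00000021466, chr13:63508328-63573598, minus strand) was at 1.78, 1.74 and 2.06 FPKM in Gm31629-/- mice and at 1.14, 1.19 and 1.31 FPKM in WT mice. The groups did not overlap, and both were tight. The log2 fold change of FPKM + 1 was 0.37 (95% CI 0.03 to 0.71, limma adjusted p = 0.0764), which did not pass the test. On recovered fragments (464, 456 and 536 against 298, 303 and 348), limma's voom gave a log2 fold change of 0.62 (adjusted p = 0.0267), which was under the fold required for a call.

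Smo (the membrane protein that passes the signal on, ENSMUSG00000001761, chr6:29735503-29761365, plus strand) was at 3.41, 5.08 and 3.27 FPKM in Gm31629-/- mice and at 2.63, 1.62 and 3.43 FPKM in WT mice. WT mouse 3 lay above Gm31629-/- mice 1 and 3, so the groups overlapped. The log2 fold change of FPKM + 1 was 0.48 (95% CI -0.10 to 1.06, limma adjusted p = 0.151), an interval that includes 0. Ptch1 and Smo stood in a like ratio in both genotypes, with Ptch1 at 0.343 to 0.628 of Smo in Gm31629-/- mice and 0.381 to 0.732 in WT mice.

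Hhip (a decoy that binds the ligands at the cell surface and a target of the pathway, ENSMUSG00000064325, chr8:79965851-80058006, minus strand) was at 0.234, 0.215 and 0.252 FPKM in Gm31629-/- mice and at 0.0298, 0.0122 and 0.00586 FPKM in WT mice. These were 39, 36 and 42 fragments against 5, 2 and 1, with no overlap. The ratio of means was 14.6, and limma's voom on the fragments gave a log2 fold change of 3.85 ± 0.60 (SE, adjusted p = 0.00224). In this fit, over 16078 genes with a mean of at least 10 fragments, 29.1% of genes were called higher and 6.62% lower. Hhip reached this mean only through its level in Gm31629-/- mice, so its call is a description.

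The transcription factors were all higher in Gm31629-/- mice, by ratios of means from 3.58 (Gli1) to 62.1 (Gli3). Foxf1 (ENSMUSG00000042812, chr8:121084386-121088144, plus strand) was at 19.5, 43.5 and 25 FPKM in Gm31629-/- mice and at 1.16, 2.69 and 1.01 FPKM in WT mice. The lowest Gm31629-/- mouse stood far above the highest WT mouse, and mouse 2 was the highest of its group in both genotypes. The mean was 29.3 ± 12.6 FPKM against 1.62 ± 0.928 FPKM (SD, n = 3 each), a ratio of 18.1, and the log2 fold change of FPKM + 1 was 3.51 (95% CI 2.70 to 4.32, limma adjusted p = 0.000578). Foxf1 rose, beside 18.4% of all tested genes that were called higher.

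Gli2 (the main activator among the GLI factors, ENSMUSG00000048402, chr1:118834132-119053619, minus strand) was at 0.949, 2.41 and 1.83 FPKM in Gm31629-/- mice and at 0.0393, 0.0970 and 0.0465 FPKM in WT mice. The groups were far apart, with 120, 306 and 231 fragments against 5, 12 and 6. Gli2 rose by a log2 fold change of FPKM + 1 of 1.33 (95% CI 0.80 to 1.85, limma adjusted p = 0.0038), a scale that understates low genes: the ratio of mean FPKM was 28.4. Its call and that of Foxf1 were kept when any 1 mouse was left out, with log2 fold changes of 1.15 to 1.55 and 3.19 to 3.78. The same genes were fitted each time. Gli2 passed the filter on mean FPKM only through its level in Gm31629-/- mice, so its call is a description.

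Gli3 (the GLI factor that acts largely as a repressor, ENSMUSG00000021318, chr13:15463235-15730026, plus strand) was at 0.714, 1.21 and 0.528 FPKM in Gm31629-/- mice and at 0, 0.0174 and 0.0222 FPKM in WT mice. These were 126, 215 and 93 fragments against 0, 3 and 4, the lowest WT level of the 9 genes. Limma's voom gave a log2 fold change of 6.10 ± 0.94 (SE, adjusted p = 0.00211). The calls of Gli3 and Hhip in this fit were kept when any 1 mouse was left out, with log2 fold changes of 5.10 to 6.68 and 3.39 to 4.35. The same genes were fitted each time, and both reached the filter only through Gm31629-/- mice. Keeping these calls is thus a description and adds no support. An antisense transcript, Gm6556, overlaps the start of Gli3 (chr13:15463235-15463736), and reads from that stretch cannot be told apart.

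Gli1 (a GLI activator whose own transcription is a classic readout of the pathway, ENSMUSG00000025407, chr10:127329882-127341974, minus strand) differed least of the 3. It was at 0.392, 0.347 and 0.316 FPKM in Gm31629-/- mice and at 0.0866, 0.133 and 0.0746 FPKM in WT mice, from 36, 32 and 29 fragments against 8, 12 and 7. The groups did not overlap, and the ratio of means was 3.58. Limma's voom gave a log2 fold change of 1.82 ± 0.44 (SE, adjusted p = 0.0123), but without WT mouse 3 the adjusted p was 0.0602. Gli1, too, reached the filter on fragments only through its level in Gm31629-/- mice. Gli1 overlaps Arhgap9 on the opposite strand in a short stretch only (chr10:127329882-127329943). An antisense gene that is not among the listed genes, Gm47200, spans most of Gli1. Reads from shared stretches cannot be told apart without the strand setting.

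Counted together, 5 of the 9 genes passed the filter on FPKM, of which 2 were called higher (Foxf1 and Gli2) and 1 lower (Ihh), against 18.4% and 4.64% of all tested genes. On fragments 8 could be tested, and 5 were called higher (Hhip, Gli1, Gli2, Gli3 and Foxf1) and 1 lower, against 29.1% and 6.62%. Values of the 2 groups did not overlap for 6 genes that were higher and 2 that were lower, against 31.0% and 12.6% of all listed genes. A member low in WT mice could pass the filter only through its level in Gm31629-/- mice, so these counts are a description.

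The order of the genes differed between the genotypes. In FPKM, which is per gene length, the order in WT mice was Ihh, Smo, Foxf1, Ptch1, Shh, Gli1, Gli2, Hhip and Gli3, in which Smo and Foxf1, Foxf1 and Ptch1, Gli1 and Gli2, and Hhip and Gli3 had overlapping ranges. In Gm31629-/- mice it was Foxf1, Ihh, Smo, Ptch1, Gli2, Gli3, Gli1, Hhip and Shh, in which Foxf1 and Ihh, Ptch1 and Gli2, and Gli2 and Gli3 overlapped. Ihh led the WT order clear of Smo, whereas in Gm31629-/- mice the mesenchymal Foxf1 reached the range of Ihh. Gli2 was at 0.454 to 0.727 of Gli1 in WT mice and at 2.42 to 6.95 times Gli1 in Gm31629-/- mice. In WT mice these were 5, 12 and 6 fragments of Gli2 against 8, 12 and 7 of Gli1, too few to say which led.

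Relative to fibroblast genes, the members differed in direction. The WT values of Gli1, Gli2, Gli3 and Hhip on this scale rest on at most 12 fragments a mouse. Per 100 FPKM of the geometric mean of the 12 fibroblast genes, Foxf1 was at 120, 106 and 97.2 in Gm31629-/- mice and at 116, 116 and 76.9 in WT mice. These ranges overlapped, and the ratio of means was 1.05. Foxf1 was also at 1.30 to 2.39 times Pdgfra, a receptor that marks gut fibroblasts, in Gm31629-/- mice and at 1.31 to 2.11 times in WT mice.

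Gli2 was slightly higher on this scale, at 5.84 to 7.11 against 3.52 to 4.17 per 100, without overlap. Gli3 was at 2.05 to 4.39 against 0 to 1.68. Hhip overlapped, at 0.525 to 1.44 against 0.445 to 2.96.

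Gli1, Ptch1 and Smo were lower on this scale. Gli1 was at 2.41, 0.848 and 1.23 per 100 in Gm31629-/- mice and at 8.61, 5.74 and 5.65 in WT mice, a ratio of means of 0.224. Ptch1 was at 4.25 to 10.9 against 51.0 to 113, and Smo at 12.4 to 21.0 against 69.7 to 261. On fragments scaled to the fibroblast genes, limma's voom gave Gli1 a log2 fold change of -2.37 (95% CI -4.03 to -0.71, adjusted p = 0.00639), Hhip -0.28 (adjusted p = 0.782), Gli2 0.59 (adjusted p = 0.493) and Gli3 1.90 (adjusted p = 0.0483). In that fit the median log2 fold change of all genes was -3.85, and 13282 of 16078 genes were called lower. The negative sign of Gli1 was thus shared with most genes, and Gli1 lay above that median. The spread was pooled over genes in that fit, so its p-values do not measure a gene's own spread between mice. With 3 mice a group none of these ratios could reach an exact p below 0.1.

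The fit across all genes was repeated with the libraries scaled by the same geometric means. With fibroblast scaling the log2 fold change was 0.07 for Foxf1 (95% CI -0.94 to 1.09, limma adjusted p = 0.895) and 0.16 for Gli2 (95% CI -0.33 to 0.65, adjusted p = 0.54). It was -2.07 for Ptch1 (adjusted p = 6.75e-07) and -2.58 for Smo (adjusted p = 1.23e-07), opposite in sign to the values above. This scaling moved the median log2 fold change of all tested genes from 0.15 to -2.94 and called 12154 of 14657 genes lower, so the sign is one that Ptch1 and Smo shared with most genes, and both lay above that median. With smooth muscle scaling the median was -4.20, and Foxf1 was at -1.41 (adjusted p = 0.0424) and Gli2 at -0.22 (adjusted p = 0.455), also opposite in sign. With epithelial scaling the median was 0.69, and Ptch1 was at 0.80 (adjusted p = 0.00712) and Smo at 1.02 (adjusted p = 0.0184). With fibroblast and smooth muscle scaling, the spread was pooled over genes, so those p-values do not measure a gene's own spread between mice. The part of the marker lists in these results was not tested.

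**Figure D3:**
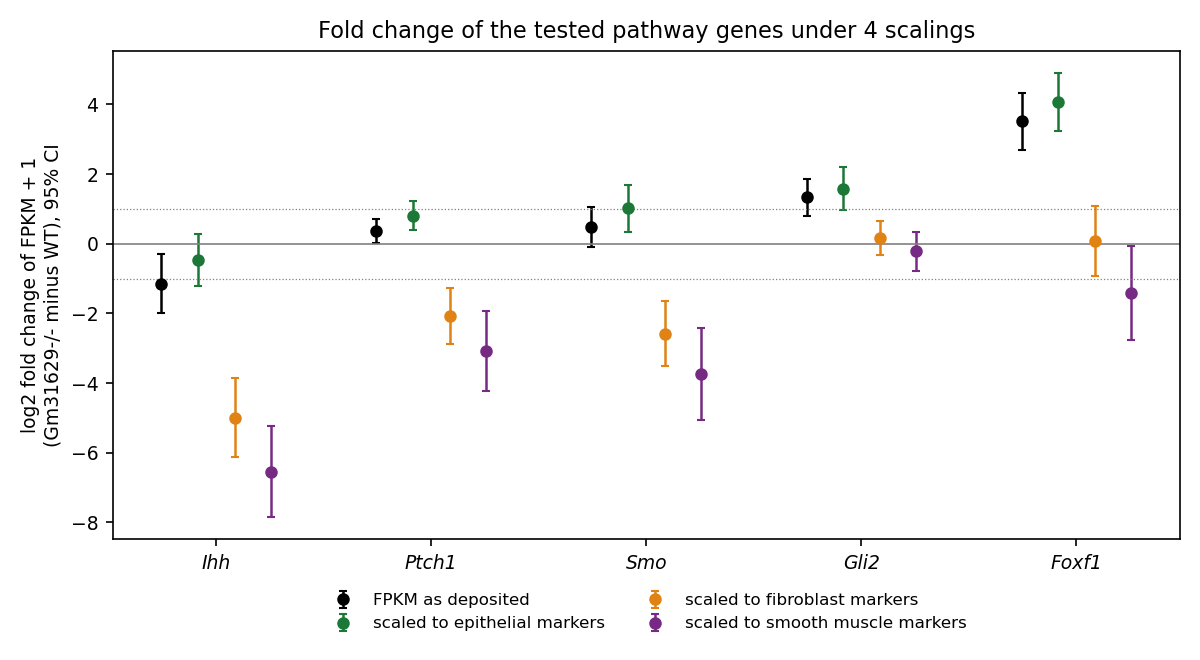
Log2 fold change of FPKM + 1 (Gm31629-/- minus WT) with 95% CI for the 5 tested genes, with the FPKM as deposited (black) and with the libraries scaled to epithelial (green), fibroblast (orange) and smooth muscle (purple) markers. Ihh is below 0 in all 4, Ptch1 and Smo change sign with the fibroblast and smooth muscle scalings (Ptch1 0.37 and 0.80 against -2.07 and -3.07), and Gli2 and Foxf1 lie near 0 with fibroblast scaling (0.16 and 0.07) and below 0 with smooth muscle scaling (-0.22 and -1.41); dotted lines mark a log2 fold change of 1 and -1.

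**Figure D4:**
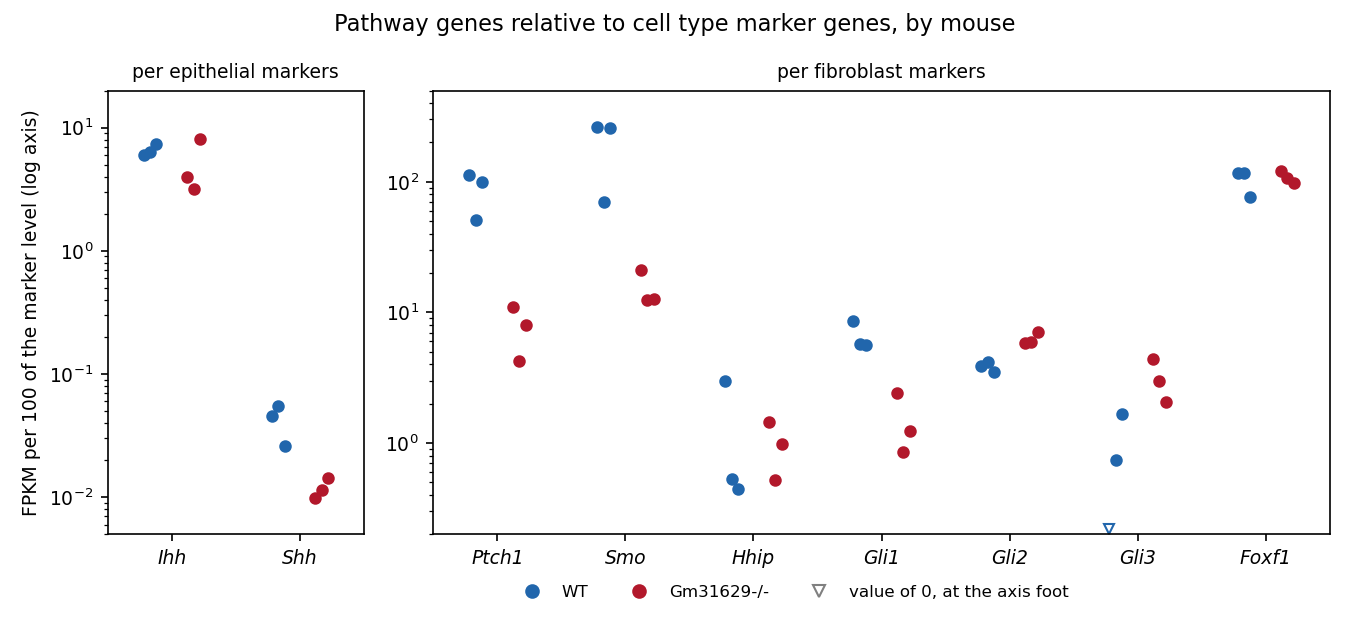
FPKM of each gene per 100 FPKM of the geometric mean of epithelial markers (left, ligands) or fibroblast markers (right, other genes), log axes, 1 point per mouse, WT in blue and Gm31629-/- in red. Foxf1 overlaps between the genotypes (76.9 to 116 against 97.2 to 120), Gli2 and Gli3 lie higher in Gm31629-/- mice, and Ptch1, Smo and Gli1 lie lower.

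The other genes of the pathway were more often higher than lower in Gm31629-/- mice. Of 50 genes in 5 lists, 37 were tested, 19 were called higher and 0 lower (adjusted p under 0.05 alone added 1 lower, Boc), with a median log2 fold change of 1.06 against 0.15 over all genes, of which 18.4% were called higher and 4.64% lower. On fragments 48 were tested, and 31 were called higher and 0 lower, against 29.1% and 6.62% of all genes. Values did not overlap for 40 genes that were higher and 2 that were lower (Boc and Prkaca), against 31.0% and 12.6%. The gut mesenchyme list held 9 of the 19 genes called higher, and the difference between lists was not tested. As with the members, a gene low in WT mice could pass either filter only through its level in Gm31629-/- mice. Scube2 and Nkx3-2, for example, were at 0 in WT mice. These counts and medians are therefore a description.

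Of 12 gut mesenchyme genes linked to Hedgehog, 10 were tested and 9 called higher, with a median log2 fold change of 2.38. Nkx2-3, a homeobox factor of the gut mesenchyme whose promoter match is shown above, was at 12.2, 28.0 and 24.9 FPKM in Gm31629-/- mice and at 0.870, 2.29 and 0.907 FPKM in WT mice (log2 fold change 3.24, limma adjusted p = 0.000799). Sfrp1, a secreted WNT inhibitor, rose by 3.06 on the log2 scale, and Bmp4, a growth factor induced by Hedgehog in the gut mesenchyme, by 2.93. Osr1, a zinc finger factor, rose by 2.48 and was detected with 1 fragment in the 3 WT mice together.

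Bmp2, another BMP ligand and the gene of this list with the highest level, was at 49.6, 52.7 and 52.1 FPKM in Gm31629-/- mice and at 9.15, 11.8 and 8.11 FPKM in WT mice (log2 fold change 2.31, limma adjusted p = 0.000235). Foxl1, a marker of subepithelial telocytes, was the tested gene of the list that was not called, at 0.121, 3.13 and 2.23 FPKM in Gm31629-/- mice and 0.256 to 0.616 FPKM in WT mice. Mouse 1 of the Gm31629-/- group lay below every WT mouse for Foxl1, and it was also the lowest of its group for Bmp4, Wnt5a, Nkx2-3 and Foxf1.

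In the list of ligand processing and release, 4 of 7 genes were tested. Among them 3 were called higher and 0 lower, against 18.4% and 4.64% of all tested genes. On fragments 7 were tested, and 5 were called higher and 0 lower, against 29.1% and 6.62%. Values did not overlap for 6 genes that were higher and 0 that were lower, against 31.0% and 12.6% of all listed genes. Scube1, a secreted protein of the SCUBE family, was at 3.33, 16.6 and 9.86 FPKM in Gm31629-/- mice and at 0.376, 0.878 and 0.370 FPKM in WT mice (log2 fold change 2.62, limma adjusted p = 0.00512). Gpc3, a cell surface proteoglycan that competes for the ligand, rose by 1.65. Scube2, which helps to release the ligand from the cell that makes it, was at 2.43, 1.57 and 0.315 FPKM in Gm31629-/- mice and listed at 0 in all 3 WT mice, which is at least 36.7-fold higher when each WT library is set at 3 fragments. Disp1, the transporter that exports the ligand, was at 2.07 to 2.34 against 2.15 to 2.38 FPKM, with overlapping groups and a log2 fold change of -0.05 (95% CI -0.39 to 0.30). The ligand Dhh was at 0.414, 0.688 and 0.921 FPKM in Gm31629-/- mice and at 0.252, 0 and 0.113 FPKM in WT mice. It lay below the filter on FPKM, and limma's voom on fragments gave a log2 fold change of 3.50 (adjusted p = 0.0307).

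The co-receptors went in opposite directions. Gas1 was at 10.3, 14.1 and 5.57 FPKM in Gm31629-/- mice and at 0.183, 0.113 and 0.108 FPKM in WT mice (log2 fold change 3.20, limma adjusted p = 0.000487), and Cdon rose by 1.29. Boc, which binds the same ligands, was at 5.70, 5.05 and 3.24 FPKM in Gm31629-/- mice and at 10.1, 6.70 and 9.43 FPKM in WT mice. Boc was lower without overlap, with a log2 fold change of -0.79 (limma adjusted p = 0.0298), short of the fold required for a call.

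Regulators of GLI proteins changed in part. Of 14, 11 were tested and 4 called higher, against 18.4% of all tested genes, with a median log2 fold change of 0.82. On fragments 8 of 14 were called higher, against 29.1%. Evc2 and Evc, partner proteins at the base of the cilium that pass the signal from Smo, rose by 1.55 and 1.25. Tulp3, a ciliary transport protein, rose by 1.08, and Spop, an adaptor for GLI degradation, by 1.07 (42.0 to 50.5 against 18.9 to 24.1 FPKM). Grk2, a kinase that acts on Smo and the gene of this list with the highest mean level, had a log2 fold change of 0.27 (95% CI -0.05 to 0.59, limma adjusted p = 0.15).

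The primary cilium, the organelle in which the signal is read, showed the smallest difference of the lists. Of 12 genes, 9 were tested and 1 was called higher, a share under the 18.4% of all genes, with a median log2 fold change of 0.50. On fragments the share was above that of all genes: 6 of 12 were called higher and 0 lower, against 29.1% and 6.62%. The median there was 1.09 against 0.30 over all genes. Values did not overlap for 9 genes that were higher, against 31.0% of all listed genes. The 1 gene called on FPKM is described here. It was Kif3a, a motor subunit, at 2.83, 4.26 and 2.46 FPKM in Gm31629-/- mice and at 0.889, 1.36 and 0.712 FPKM in WT mice (log2 fold change 1.06, limma adjusted p = 0.00835). Its partner Kif3b, the gene of the list with the highest level, was at 11.8 to 15.4 against 11.6 to 14.1 FPKM, with a log2 fold change of 0.08 (95% CI -0.29 to 0.45).

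**Figure D5:**
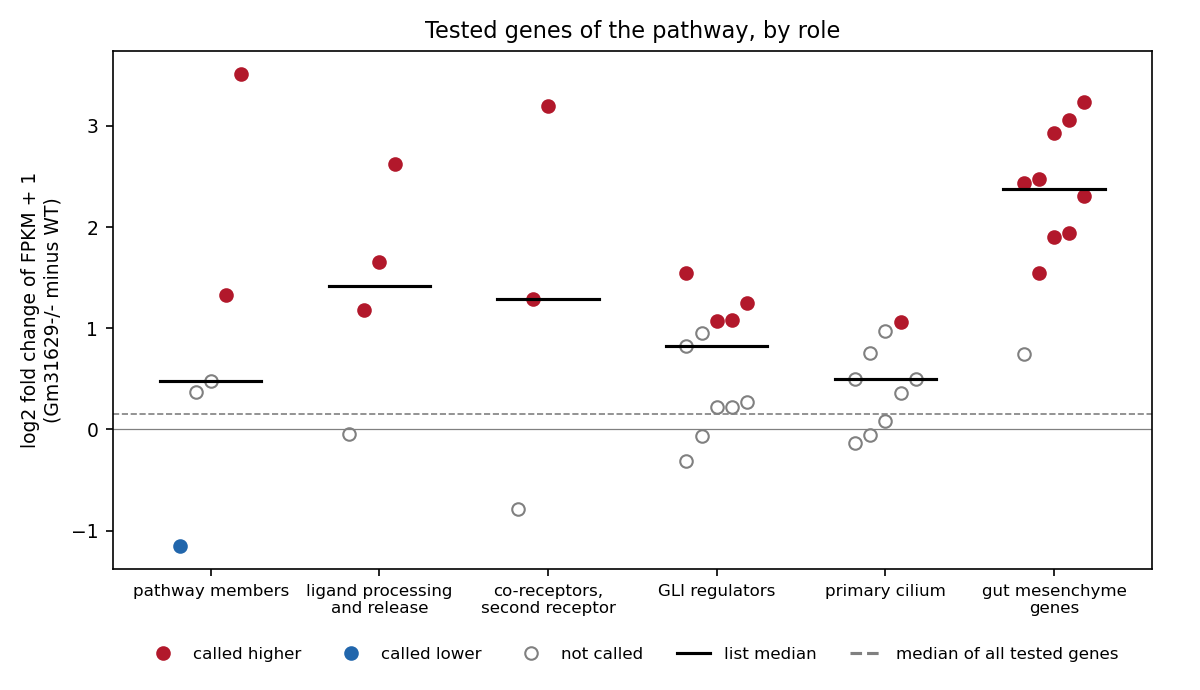
Log2 fold change of FPKM + 1 (Gm31629-/- minus WT) of each tested gene, by role in the pathway, filled where called (red higher, blue lower) and open where not, with list medians as black lines and the median of all tested genes (0.15) dashed. The gut mesenchyme list has the highest median (2.38) and the primary cilium list the lowest of the 5 lists of other pathway genes (0.50), and Ihh is the sole gene called lower.

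The genes whose pattern over the 6 mice was most like that of Ihh were found by the root mean square difference of log2(FPKM + 1), each gene centred on its own mean. They were Gm5843 (0.098), Dhcr7 (0.177), Gstp2 (0.191), Frat2 (0.197) and Adck5 (0.199). Dhcr7 was at 11.3, 7.28 and 18.3 FPKM in Gm31629-/- mice and at 32.3, 26.8 and 29.7 FPKM in WT mice, with mouse 3 the highest and mouse 2 the lowest of the Gm31629-/- group as for Ihh. For Gli1 they were Gm45902 (0.031), Dnajc7 (0.040), Nkapd1 (0.042), Mlh3 (0.042) and 4933434E20Rik (0.043). The pattern of Gli1 on this scale is a small step between the groups, since its FPKM is low against the added 1: Dnajc7 was at 15.4 to 16.2 against 11.9 to 12.7 FPKM.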

How the data were processed

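TruSeq RNA libraries came from distal colon of 3 Gm31629-/- and 3 WT mice, grouped by the labels. The authors deposited FPKM values for 27546 genes by Ensembl identifier, 1 column per mouse. The submitters' processing notes name HISAT2 2.1.0, HTSeq 0.6.0 and GRCm38 without a role or order. The annotation and the strand setting are not given in the sources used here. The DEGseq test of the methods was not repeated.

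GENCODE M21 (GRCm38) gave symbols, positions and the summed exon length of each gene, and matched 27488 identifiers. Fragments were recovered from the size of 1 fragment per gene and library. Between 96.3% and 97.2% of a library's values of 20 fragments or fewer came out whole within 0.1, at a depth of 18003737 to 18796084 fragments. A value of 0 allows up to 3 fragments, for counting error only. Since FPKM does not hold depth, these depths are estimates.

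The 14657 genes whose mean FPKM reached 0.5 were fitted by genotype on log2(FPKM + 1) with lmFit and trended eBayes of limma 3.58.1 (R 4.3.3). Calls required a p under 0.05 after Benjamini-Hochberg adjustment over all genes tested, together with a log2 fold change beyond 1 or -1. Genes below the filter were compared by a two-sided exact permutation test of the group means, which cannot go below 0.1. Limma's voom on recovered fragments, with a mean of at least 10, was added after seeing the data, with the same thresholds, and also with scaling to marker genes. Scaling divided each library by the geometric mean FPKM of a marker list, with the geometric mean of FPKM + 1 as an alternative added after seeing the data. The scripts were tested on simulated data. Mice of a group differed beyond counting noise, with a chi-square per gene of 30.6 to 44.5 for WT pairs and 100 to 150 for Gm31629-/- pairs. P-values measure the spread between these mice, with an exception. In the fits scaled to the geometric mean FPKM of fibroblast or smooth muscle markers, limma took the spread almost wholly from the other genes. Those p-values do not measure a gene's own spread between mice.

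The members and lists were chosen with earlier results of these data known. Beside the 9 members, the text names in each other pathway list the up to 4 called genes with the largest change and the gene with the highest mean FPKM, the marker gene with the highest mean FPKM where a member is read against that list, and the 5 genes most like Ihh and Gli1. Dhh, Disp1, Foxl1, Prkaca, Wnt5a, Bmp5, Mycn, Pdgfra, Epcam and the sex-linked genes were named after their values were seen. Alternatives were no filter, a filter at a mean FPKM of 1, a pseudocount of 0.1, scaling to the same sum, to the median ratio or to epithelial, fibroblast or smooth muscle markers, eBayes without a trend, voom, adjusted p alone, a replicate block, and leaving out each mouse. Promoter sequences were those of RefSeq (GRCm38.p6). Figures were drawn with matplotlib 3.10.9.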

Additional observations from a re-analysis of the deposited data

How the results depend on the processing

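The count of 2 members called higher was 1 with a mean FPKM of at least 1, 2 with voom on the same genes, 5 with voom on genes with a mean of at least 10 fragments, which also changed the filter, and 0 with fibroblast or smooth muscle scaling. The count of 1 called lower was 0 with no filter or epithelial scaling, 3 with fibroblast and 4 with smooth muscle scaling, and 0 to 1 when 1 mouse was left out. The 19 other pathway genes called higher were 23 and 31 with voom under these filters, 2 with fibroblast scaling, 0 with smooth muscle scaling and 14 to 21 when 1 mouse was left out. The 0 called lower became 1 with the median ratio or adjusted p alone, 21 with fibroblast scaling and 28 with smooth muscle scaling. With fibroblast and smooth muscle scaling, directions reversed for Ptch1 (-2.07 and -3.07, -3.53 and -5.27 in voom) and Smo (-2.58 and -3.75, -3.48 and -5.22 in voom), and with smooth muscle scaling for Foxf1 (-1.41, -1.67 in voom) and Gli2 (-0.22, -1.16 in voom).

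With FPKM + 1 in the geometric mean, fibroblast and smooth muscle scaling called 0 members higher and 3 lower, 2 and 0 other pathway genes higher and 15 and 22 lower, and epithelial scaling 0 members lower. Ptch1 was then at -1.49 and -2.35, Smo at -1.87 and -2.90, and Foxf1 at 0.92 (limma adjusted p = 0.0247) and -0.33. Gli2 was at 0.40 and 0.09, so its sign did not reverse there.

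Of all genes, 2704 were called higher and 680 lower, against 4910 and 220 with epithelial, 152 and 12154 with fibroblast and 30 and 13291 with smooth muscle scaling, 3644 and 993 with voom, 4680 and 1065 with voom and the fragment filter, and 2242 and 1225 with the median ratio, which lowered the share of higher calls from 79.9% to 64.7%. Same-numbered mice did not deviate together over the tested genes as a whole (r = 0.036, -0.108 and 0.014). With 3 mice a group these values cannot exclude a pairing, and the main fit used none. With a replicate block, 2 members were called higher and 1 lower, and Ihh was at -1.15 (limma adjusted p = 0.0328). Depth limits Shh, Hhip, Gli1, Gli2 and Gli3, which had 0 to 18 fragments in WT mice.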
